A study of Homo sapiens with 9 samples.

Results

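The 43 genes described here are interferon-stimulated genes, chosen by symbol from a fixed list and not by a rule on their values. Earlier results of these data were known when the list was chosen. They are 43 of the 60651 gene rows of a count table that also holds 1181 repeat subfamilies, and all 43 symbols were found in it. HCT116, an established line of human colorectal cancer cells, was the source of the RNA, and its genotype label is WT in all 9 libraries. The labels place 3 libraries in each of 3 groups. Cells of the group shCTRL DMSO had a control short hairpin RNA and were given DMSO, a solvent. Those of shSLC6A3 DMSO had a hairpin that targets SLC6A3, which encodes the dopamine transporter, and were given DMSO too. Those of shCTRL VXN had the control hairpin and were given what the labels abbreviate as VXN, and the title of replicate 3 has VNN in its place. The series title gives the effect of losing the dopamine transporter as the question. No label names an interferon, a virus or another inducer of these genes. The dose and duration of VXN, the hairpin sequences and whether the lines were pools or clones were not given in the labels.

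The labels and the authors' 2 deposited tables of fold changes do not divide the libraries in the same way. One table sets shCTRL V against shCTRL D and the other shDAT D against the same shCTRL D, and DESeq2 returned 38907 of 38907 deposited p-values within 1e-06 for each when it was rerun on 3 particular trios of columns. The V columns are replicate 3 of shCTRL DMSO, replicate 1 of shSLC6A3 DMSO and replicate 3 of shCTRL VXN, as labelled. The DAT columns are replicates 1 and 2 of shCTRL DMSO and replicate 1 of shCTRL VXN. The D columns are replicates 2 and 3 of shSLC6A3 DMSO and replicate 2 of shCTRL VXN. No library's treatment was read from its values, so the trios are called V, DAT and D columns below. Values per library follow the order in which the trios are listed here. The library labelled shCTRL VXN replicate 2 stands apart within the D columns. Over 15290 features its closest library was shCTRL DMSO replicate 1, a DAT column, at r = 0.9977, while the other D columns were closest to each other at r = 0.9991. Results that use the D columns are therefore given with and without it where it changes them. The V and DAT columns were not uniform either. Replicate 1 of shCTRL VXN was closest to shCTRL VXN replicate 2 (r = 0.9975), while the other DAT columns were at r = 0.9987 to each other. Replicate 3 of shCTRL VXN reached at most r = 0.9955, while the other V columns were at r = 0.9988 to each other. The column numbers of the shCTRL VXN libraries form a series apart from the rest, and their meaning is not given. No label says that replicates were separate cultures, so p-values rest on the spread from library to library, and this spread may be technical.

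Total counts ran from 30.25 to 60.22 M (1e6) per library. SLC6A3 itself had 6, 2 and 2 counts in shCTRL DMSO replicates 1 to 3, 3, 1 and 0 in shSLC6A3 DMSO, and 0, 3 and 2 in shCTRL VXN. These counts are too few to check the labels by, since a count of 0 still allows up to 3 (counting error only). Of 7 colon epithelial markers, EPCAM, CDH1, KRT8, KRT18 and KRT19 were above 1 CPM (counts scaled to library size) in all libraries, whereas CDX1 had at most 1 count and VIL1 at most 6. Of 10 leukocyte, endothelial and fibroblast markers, 8 had a mean under 1 CPM, among them PTPRC with at most 2 counts and CD3E and DCN with at most 1.

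Type I and type III interferons bind receptors that signal through the kinases JAK1 and TYK2, and the signal is carried to the nucleus by a complex that includes STAT2 and IRF9. This complex binds the interferon-stimulated response element, a pair of GAAA half-sites, in promoters of many interferon-stimulated genes. Several of them are also induced without interferon, by other IRF factors that are activated when sensors detect double-stranded RNA. Their products degrade or sequester foreign RNA, modify proteins with the ubiquitin-like ISG15, block membrane fusion or feed back on the pathway.

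The element was searched in RefSeq promoters (GRCh38.p14, 250 bases before to 50 after each annotated start) as its core GAAANNGAAA or, on the other strand, TTTCNNTTTC, with overlapping matches counted. A window was given for 37 of the 43 genes, with RIGI matched to its older symbol DDX58. It was present for 24 of these 37, against 3.57% of 35116 windows and 4.38% of 27305 genes overall. The genes without a match in their window included IRF1, IRF9, STAT2, TRIM25, CMPK2 and UBE2L6. The following 180-base stretches are read 5′ to 3′ on the gene's strand and end just before the RefSeq start. They belong to 6 genes that carry the element and have values in every library given below. These 6 were picked by the largest absolute log2 fold change of V against D columns in the authors' deposited table. ISG20 and IFIT3 were higher in the V columns, and OAS3, IFIT1, HERC5 and IFITM3 lower. Capitals mark the matches. The stretches come from chr12:112938294-112938473, plus strand (OAS3), chr15:88638836-88639015, plus strand (ISG20), chr10:89392443-89392622, plus strand (IFIT1), chr10:89327817-89327996, plus strand (IFIT3), chr4:88456939-88457118, plus strand (HERC5) and chr11:320861-321040, minus strand (IFITM3).
OAS3: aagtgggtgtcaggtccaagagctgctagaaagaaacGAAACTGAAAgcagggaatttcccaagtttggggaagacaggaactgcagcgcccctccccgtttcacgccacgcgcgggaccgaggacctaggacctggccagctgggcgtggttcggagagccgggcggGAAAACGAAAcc
ISG20: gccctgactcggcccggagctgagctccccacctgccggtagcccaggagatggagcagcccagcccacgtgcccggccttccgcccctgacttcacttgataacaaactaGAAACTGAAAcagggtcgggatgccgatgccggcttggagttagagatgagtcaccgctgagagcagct
IFIT1: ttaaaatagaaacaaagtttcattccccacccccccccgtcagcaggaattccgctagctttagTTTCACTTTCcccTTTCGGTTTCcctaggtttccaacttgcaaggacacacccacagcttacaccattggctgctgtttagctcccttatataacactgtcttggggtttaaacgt
IFIT3: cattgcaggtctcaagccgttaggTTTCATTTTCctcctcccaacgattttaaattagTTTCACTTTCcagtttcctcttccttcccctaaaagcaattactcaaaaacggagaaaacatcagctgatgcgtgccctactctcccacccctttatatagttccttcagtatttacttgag
HERC5: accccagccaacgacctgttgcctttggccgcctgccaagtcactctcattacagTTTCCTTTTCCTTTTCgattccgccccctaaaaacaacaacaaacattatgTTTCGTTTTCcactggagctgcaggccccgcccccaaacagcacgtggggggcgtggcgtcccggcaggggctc
IFITM3: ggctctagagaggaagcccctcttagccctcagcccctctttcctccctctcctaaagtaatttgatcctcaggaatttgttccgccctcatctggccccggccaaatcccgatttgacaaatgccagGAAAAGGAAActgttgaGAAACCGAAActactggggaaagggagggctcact
The window held 3 matches for HERC5, of which a pair overlap, 1 for ISG20 and 2 for each of the others. The element was found in genes of both directions. Of genes with a window, it was present for 5 of 11 that were higher in the V columns than in the D columns. It was present for 5 of 8 of those lower and for 13 of 17 of those not called. A match is a stretch of letters and not a measured binding site.

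The genes were unequal in basal level. Mean level over the 9 libraries was at least 1 CPM for 33 genes and below it for OAS1, OAS2, IFITM1, BST2, MX1, RSAD2, IFI27, IFI44, IFI44L and XAF1. Per exon length, in counts per kilobase of exon, scaled to library size (RPKM), the highest levels were those of IFITM3 at 132.8, ISG15 at 49.5, ADAR at 40.61, TRIM25 at 32.17 and IFITM2 at 27.3. Several genes often used as readouts of an interferon response were near the limit of detection. MX1 had between 21 and 53 counts, IFI44 between 2 and 18, RSAD2 between 1 and 9, OAS2 between 0 and 9 and IFI44L at most 1. For these genes only a large difference was detectable at this depth.

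**Figure D1:**
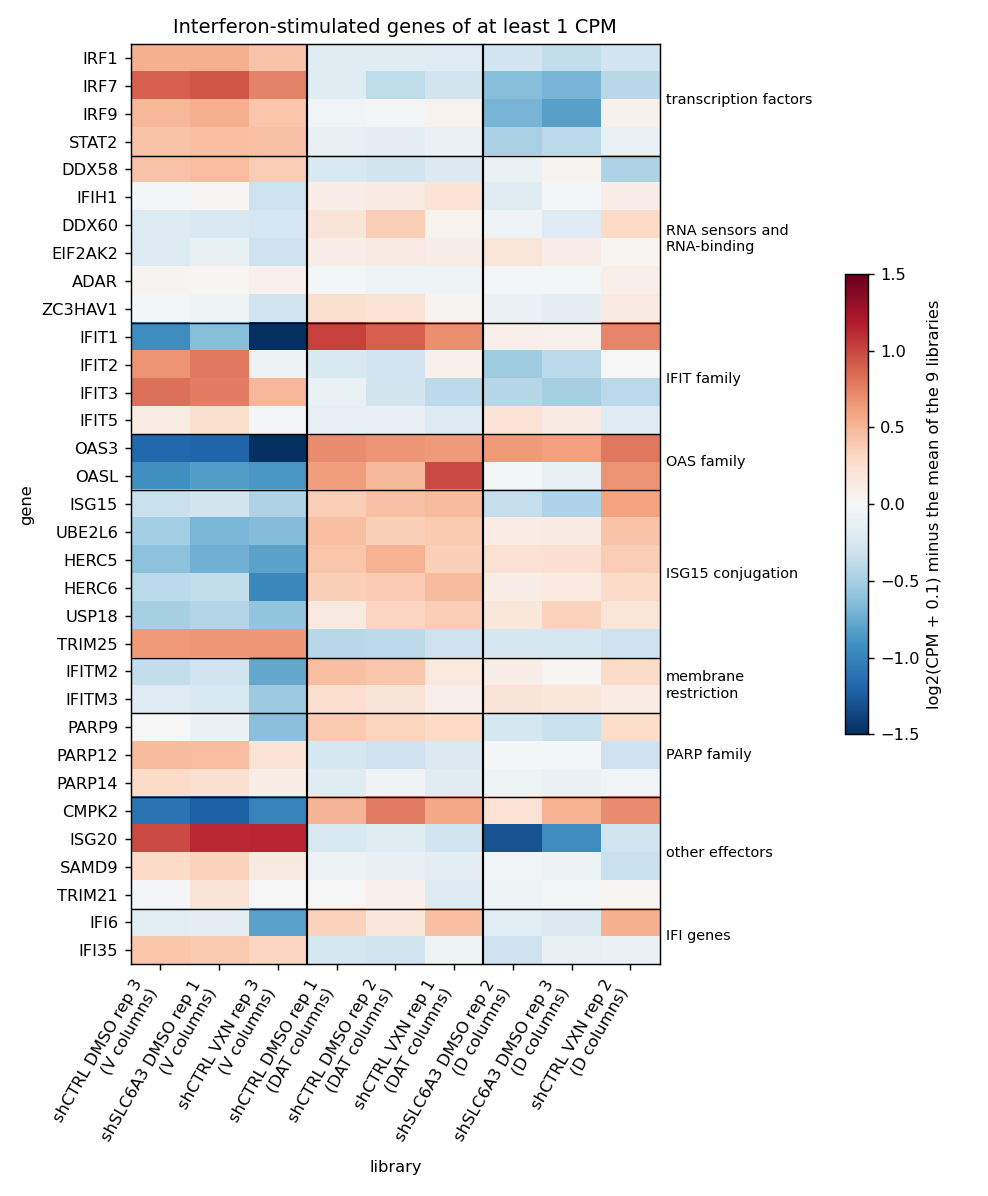
Each row is a gene with a mean of at least 1 CPM (33 genes, ordered by role) and each column is a library, grouped by the columns of the deposited tables; colour is log2(CPM + 0.1) minus the gene's mean over the 9 libraries. The 3 V columns differ from the other 6 in both directions, and shCTRL VXN replicate 2, the last column, was nearer the DAT mean for 27 of the 33 genes (80.6% of all features of that level).

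With the groups as labelled, no interferon-stimulated gene was called in either comparison by edgeR over all 9 libraries. The edgeR test called 0 higher and 0 lower of 39 genes tested for shSLC6A3 DMSO against shCTRL DMSO, where 0% of all 20402 features were called higher and 0% lower. At an unadjusted p below 0.05 it gave 0 higher and 1 lower, and DESeq2 likewise called 0 with 0 higher and 1 lower unadjusted. These are no more than the 4.56% (edgeR) and 3.07% (DESeq2) of all features that pass unadjusted. The gene lower at an unadjusted edgeR p was BST2, which tethers budding viruses to the cell, with 0.737 ± 0.094 CPM in shCTRL DMSO and 0.401 ± 0.129 CPM in shSLC6A3 DMSO (SD, n = 3; edgeR log2 difference -0.88, adjusted p = 0.978). The median log2 difference was -0.189 over the interferon-stimulated genes and -0.006 over all features. For shCTRL VXN against shCTRL DMSO, edgeR again called 0 higher and 0 lower of 39, with 0% of features called higher and 0.00980% lower. There was no gene at an unadjusted p below 0.05 by edgeR or by DESeq2 (0 and 0 in each direction). The medians were -0.066 over these genes and 0.004 over all features.

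The spread inside the labelled groups was wide for the genes that differ between the trios. OAS3, which makes 2′-5′ oligoadenylates that activate RNase L, stood at 54.7 ± 30.2 CPM in shCTRL DMSO, 52.6 ± 28.7 CPM in shSLC6A3 DMSO and 54.0 ± 34.9 CPM in shCTRL VXN (SD, n = 3). TRIM25, a ubiquitin ligase that acts on the sensor RIG-I, stood at 296 ± 133 CPM, 313 ± 122 CPM and 308 ± 128 CPM in the same order (SD, n = 3). In each labelled group 1 library is a V column, and that library was the low one for OAS3 and the high one for TRIM25. When the replicate number was used as a block in a fit of only the 6 libraries compared, an alternative chosen after seeing the data, the VXN comparison called 1 interferon-stimulated gene, with 0.602% of features called higher and 0.435% lower. It was IFITM2, a membrane protein that restricts viral entry, which fell by 0.26 on the log2 scale (edgeR adjusted p = 0.0432). Its levels were 55.8 and 45.3 CPM in replicate 1 of shCTRL DMSO and shCTRL VXN, 54.5 and 49.7 CPM in replicate 2, and 31.6 and 23.9 CPM in replicate 3. The separate series of column numbers goes with the VXN label in these libraries, and its part was not tested. IFITM2 was lower with the VXN label at each of the 3 replicate numbers, which no label states to be pairs. With the same block in the fit of all 9 libraries it was not called (log2 difference -0.26, edgeR adjusted p = 1).

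The deposited comparison of shCTRL V with shCTRL D divided the genes. The 4 transcription factors, the RNA sensor gene DDX58, the nuclease ISG20 and TRIM25 were higher in the V columns, and OAS3, OASL, CMPK2 and 4 of the 6 genes of ISG15 conjugation were lower. In the authors' deposited table, 41 interferon-stimulated genes have an adjusted p, and 13 of them were higher and 11 lower, as were 21.4% and 22.7% of all features. The median log2 fold change in the authors' deposited table was -0.078 over the list and -0.002 over all features. Among the 33 genes of at least 1 CPM, all 3 V columns lay above all 3 D columns for 12 and below them for 12, and 9 overlapped. Over all 15290 features of at least 1 CPM they lay above for 32.6% and below for 34.6%, so the list's counts were near those of the transcriptome at large. Without shCTRL VXN replicate 2 a DESeq2 rerun gave the same counts, 13 higher and 11 lower of 42, with 22.1% of features higher and 23.1% lower.

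The V columns also differed from the others in cell division markers. All 8 proliferation markers (MKI67, TOP2A, CCNB1, CDK1, BUB1, MCM2, PCNA and TYMS) were lower, and the median of their log2 fold changes was -2.574 in the authors' deposited table. Their summed level was 323.8 to 396.5 CPM in the V columns, 2004 to 2115 CPM in the DAT columns and 2065 to 2389 CPM in the D columns. The part of this difference in the results for interferon-stimulated genes was not tested. The summed level of the 10 leukocyte, endothelial and fibroblast markers was 36.96 to 51.25 CPM in the V columns, 39.14 to 45.26 CPM in the DAT columns and 23.32 to 43.35 CPM in the D columns, and 0 of 7 with an adjusted p were called in the authors' deposited table. Few genes carry this sum, since 8 of the 10 have a mean under 1 CPM. In RNA from whole cultures, a change in the number of cells that make a transcript and a change in its amount per cell cannot be told apart.

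**Figure D2:**
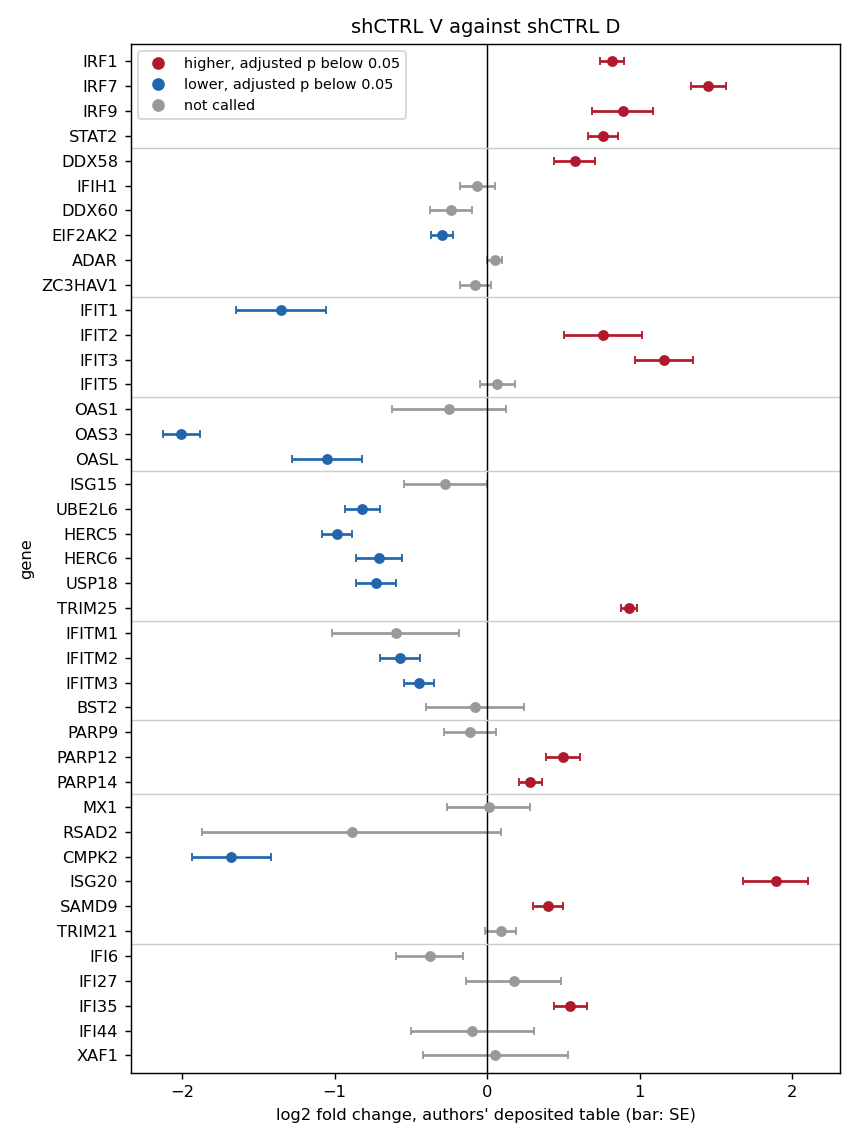
The log2 fold change of shCTRL V against shCTRL D with its SE is plotted for the 41 interferon-stimulated genes that have an adjusted p in the authors' deposited table, ordered by role and coloured by call. Red points (13 genes) include all 4 transcription factors at the top, blue points (11 genes) include OAS3 at -2.00, and grey points were not called.

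Among the transcription factors, all 4 rose and none fell, where 21.4% of all features were higher and 22.7% lower. The same shares apply to the counts of the other role groups in this comparison. The role groups are small and were not tested as groups. IRF7, the factor that amplifies interferon production (ENSG00000185507.21, GRCh38 chromosome 11, 612553 to 615999, minus strand), had 18.1, 18.8 and 16.3 CPM in the V columns, 8.54, 7.47 and 8.03 CPM in the DAT columns and 6.21, 5.95 and 7.27 CPM in the D columns. The V columns did not overlap with the other 6 libraries. The log2 fold change was 1.45 (SE 0.11, adjusted p = 7.18e-36) in the authors' deposited table. STAT2, a factor of type I interferon signalling (ENSG00000170581.14, chromosome 12, 56341597 to 56360155, minus strand), had 71.7, 72.9 and 72.4 CPM in the V columns, 49.5, 48.1 and 50.3 CPM in the DAT columns and 37.9, 40.2 and 49.9 CPM in the D columns. Within the D columns the value of 49.9 CPM belongs to shCTRL VXN replicate 2 and lies among the DAT values. STAT2 had a log2 fold change of 0.76 (SE 0.10, adjusted p = 5.95e-14) in the authors' deposited table. IRF1, a factor induced by interferon gamma, and IRF9, the DNA-binding partner of STAT2, had 0.82 (SE 0.08) and 0.89 (SE 0.20) in the authors' deposited table. Exons of IRF9 overlap AL136295.5 over 48.4% of their length and those of IRF1 overlap C5orf56 over 22.0%, and the counting is not stated to use strand, so reads of these pairs may be shared.

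Of 6 RNA sensors and RNA-binding proteins, DDX58 was higher and EIF2AK2 lower. DDX58, which encodes RIG-I, a sensor of RNA with a 5′ triphosphate, had a log2 fold change of 0.57 (SE 0.13, adjusted p = 3.22e-05) in the authors' deposited table. It ranged from 12.6 to 13.5 CPM in the V columns and from 7.04 to 10.03 CPM in the other libraries. EIF2AK2 encodes PKR, a kinase that halts translation on binding double-stranded RNA, and its log2 fold change was -0.30 (SE 0.07, adjusted p = 8.82e-05) in the authors' deposited table. ADAR, which edits adenosines in double-stranded RNA and has the highest mean count of this group (ENSG00000160710.18, chromosome 1, 154582057 to 154628013, minus strand), had 404, 402 and 410 CPM in the V columns, 386, 376 and 375 CPM in the DAT columns and 386, 388 and 415 CPM in the D columns. These ranges overlap between V and D columns, and ADAR was not called (0.05, SE 0.05, adjusted p = 0.555 in the authors' deposited table). The other 3 (the sensor gene IFIH1, DDX60 and ZC3HAV1) lay between -0.24 and -0.07 in the authors' deposited table and were not called.

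Some IFIT proteins bind the ends of foreign RNA, and the 4 IFIT genes lie close together on chromosome 10, yet they did not move as a unit. IFIT1 (ENSG00000185745.10, 89392546 to 89406486, plus strand) had 1.68, 2.09 and 0.802 CPM in the V columns, 6.82, 6.24 and 5.41 CPM in the DAT columns and 3.48, 3.46 and 5.55 CPM in the D columns. All V columns were below all others, and the log2 fold change was -1.35 (SE 0.29, adjusted p = 2.56e-06) in the authors' deposited table. IFIT3, which binds and stabilises the IFIT1 protein (ENSG00000119917.15, 89327894 to 89340971, plus strand), went the other way. It had 3.88, 3.72 and 3.08 CPM in the V columns, 1.997, 1.76 and 1.61 CPM in the DAT columns and 1.57, 1.496 and 1.59 CPM in the D columns. IFIT3 had a log2 fold change of 1.16 (SE 0.19, adjusted p = 8.16e-10) in the authors' deposited table. IFIT2 was also higher, at 0.76 (SE 0.26, adjusted p = 0.00293) in the authors' deposited table, although its V and D columns overlapped. IFIT5 (ENSG00000152778.10, 89414586 to 89421001, plus strand) had 31.9, 34.8 and 28.9 CPM in the V columns, 27.0, 27.1 and 25.4 CPM in the DAT columns and 33.9, 32.1 and 25.7 CPM in the D columns. IFIT5 overlapped between V and D columns and was not called (0.07, SE 0.11, adjusted p = 0.689 in the authors' deposited table). The element is present in the windows of both IFIT1 and IFIT3 printed above.

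In the OAS family, 2 of 3 genes with an adjusted p were lower and none was higher. OAS3 (ENSG00000111331.14, chromosome 12, 112938352 to 112973249, plus strand) had 19.8, 19.5 and 13.9 CPM in the V columns, 73.4, 70.8 and 70.1 CPM in the DAT columns and 69.7, 68.7 and 77.9 CPM in the D columns. The V mean was 17.7 ± 3.3 CPM and the D mean 72.1 ± 5.1 CPM (SD, n = 3). This was the lowest log2 fold change among the interferon-stimulated genes with an adjusted p, at -2.00 (SE 0.12, adjusted p = 5.27e-62) in the authors' deposited table. OASL, a relative that lacks synthetase activity and binds RIG-I (ENSG00000135114.13, chromosome 12, 121019111 to 121039242, minus strand), had 2.25, 2.39 and 2.32 CPM in the V columns, 6.74, 6.13 and 8.75 CPM in the DAT columns and 4.25, 4.02 and 6.96 CPM in the D columns. Its log2 fold change was -1.05 (SE 0.23, adjusted p = 3.93e-06) in the authors' deposited table. OAS1 was at 0.232 to 1.344 CPM over the libraries and was not called, and OAS2 had no adjusted p there.

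ISG15 is attached to proteins by the E2 enzyme UBE2L6 with the ligase HERC5 and is removed by USP18. The E2, HERC5, its relative HERC6 and the protease USP18 were all lower, ISG15 itself was not called, and TRIM25 was higher. UBE2L6 (ENSG00000156587.16, chromosome 11, 57551656 to 57568284, minus strand) had 9.50, 8.39 and 8.57 CPM in the V columns, 18.6, 17.3 and 17.8 CPM in the DAT columns and 14.6, 14.7 and 18.2 CPM in the D columns. HERC5 (ENSG00000138646.9, chromosome 4, 88457117 to 88506163, plus strand) had 8.71, 8.13 and 7.64 CPM in the V columns, 17.9, 19.4 and 17.2 CPM in the DAT columns and 15.7, 16.0 and 17.4 CPM in the D columns. For both genes every V column was below every other library. UBE2L6 had a log2 fold change of -0.82 (SE 0.11, adjusted p = 2.09e-12) and HERC5 of -0.98 (SE 0.10, adjusted p = 2.61e-23) in the authors' deposited table. HERC6 had -0.71 (SE 0.15) and USP18 -0.73 (SE 0.13) in the authors' deposited table. TRIM25 (ENSG00000121060.18, chromosome 17, 56836387 to 56914080, minus strand) had 450.1, 454 and 456 CPM in the V columns, 218, 221 and 234 CPM in the DAT columns and 243, 241 and 233 CPM in the D columns. The SD was 3.09 CPM among the V columns, and the log2 fold change was 0.93 (SE 0.05, adjusted p = 2.75e-64) in the authors' deposited table.

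ISG15 (ENSG00000187608.10, chromosome 1, 1001138 to 1014540, plus strand) was singled out after its values were seen, because 1 library decides its place. It had 35.3, 36.9 and 32.3 CPM in the V columns, 57.6, 60.6 and 61.9 CPM in the DAT columns and 34.8, 32.2 and 67.6 CPM in the D columns. The value of 67.6 CPM is that of shCTRL VXN replicate 2 and lies above the DAT values, while the other D columns lie among or next to the V values. The log2 fold change was -0.27 (SE 0.27, adjusted p = 0.36) in the authors' deposited table and 0.06 (SE 0.07, adjusted p = 0.579) in a DESeq2 rerun without that library. The rerun value is not shrunken, unlike the deposited one.

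**Figure D3:**
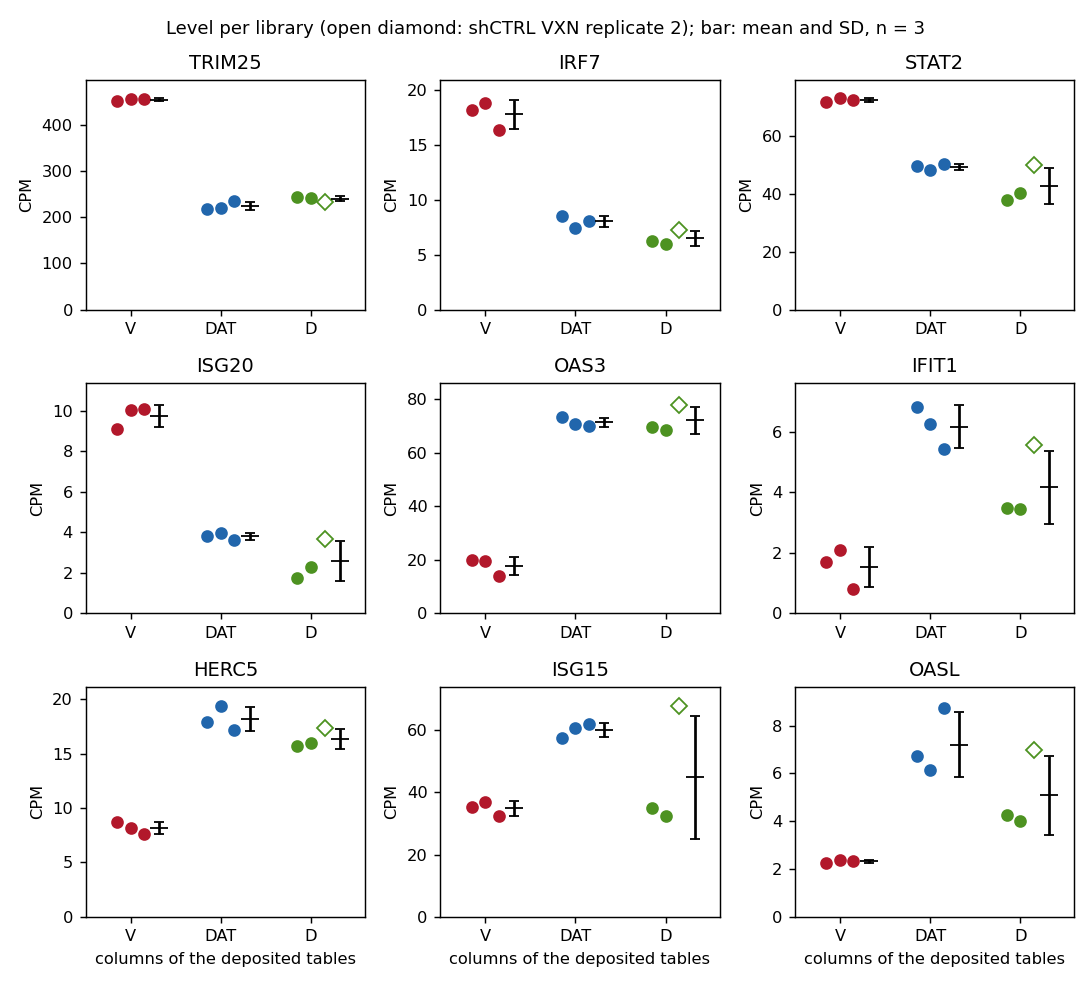
Levels of 9 interferon-stimulated genes in CPM are plotted per library for the V, DAT and D columns, with the mean and SD of each trio (n = 3) beside the points. The open diamond is shCTRL VXN replicate 2, which for ISG15 lies at 67.6 CPM against 34.8 and 32.2 CPM in the other D columns.

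The membrane restriction factors include the IFITM proteins, which block fusion of enveloped viruses. IFITM3 (ENSG00000142089.17, chromosome 11, 319669 to 327537, minus strand) had 154, 151 and 121 CPM in the V columns, 210.1, 201 and 186 CPM in the DAT columns and 202, 197 and 190.0 CPM in the D columns. The V columns were below the other 6, with shCTRL VXN replicate 3 lowest, and the log2 fold change was -0.45 (SE 0.10, adjusted p = 8.12e-06) in the authors' deposited table. IFITM2 was lower as well, at -0.57 (SE 0.13, adjusted p = 2.57e-05) in the authors' deposited table, whereas IFITM1 and BST2, both under 1 CPM, were not called. The IFITM genes are related genes on chromosome 11 and exons of IFITM1 and IFITM2 overlap, so their counts may be split between them.

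Of the PARP genes, which encode ADP-ribosyltransferases, 2 of 3 were higher. PARP14 (ENSG00000173193.15, chromosome 3, 122680618 to 122730840, plus strand) had 43.4, 41.9 and 37.9 CPM in the V columns, 31.2, 34.1 and 31.2 CPM in the DAT columns and 33.8, 33.2 and 34.4 CPM in the D columns. The V columns did not overlap with the others, and the log2 fold change was 0.28 (SE 0.07, adjusted p = 0.000458) in the authors' deposited table. PARP12 was at 0.50 (SE 0.11, adjusted p = 2.28e-05) and PARP9 at -0.11 (SE 0.17, adjusted p = 0.619) in the authors' deposited table.

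Among the other effectors, ISG20, an exonuclease that degrades single-stranded RNA (ENSG00000172183.16, chromosome 15, 88636153 to 88656483, plus strand), had 9.09, 10.02 and 10.1 CPM in the V columns, 3.80, 3.98 and 3.64 CPM in the DAT columns and 1.76, 2.29 and 3.65 CPM in the D columns. ISG20 had a log2 fold change of 1.89 (SE 0.21, adjusted p = 1.21e-18) in the authors' deposited table. CMPK2, a mitochondrial nucleotide kinase that neighbours RSAD2 (ENSG00000134326.12, chromosome 2, 6840570 to 6866635, minus strand), had 0.624, 0.565 and 0.676 CPM in the V columns, 2.11, 2.57 and 2.23 CPM in the DAT columns and 1.71, 2.14 and 2.44 CPM in the D columns. It was lower, at -1.68 (SE 0.26, adjusted p = 7.61e-11) in the authors' deposited table. SAMD9, which restricts poxviruses (ENSG00000205413.8, chromosome 7, 93099513 to 93118023, minus strand), had 35.4, 37.0 and 31.8 CPM in the V columns, 27.5, 26.8 and 26.2 CPM in the DAT columns and 28.2, 27.5 and 23.0 CPM in the D columns. SAMD9 was higher, at 0.40 (SE 0.10, adjusted p = 0.000145) in the authors' deposited table. TRIM21, an intracellular antibody receptor, MX1 and RSAD2 were not called. Of the IFI genes and XAF1, IFI35 alone was called (1 of 5 with an adjusted p). IFI35 (ENSG00000068079.8, chromosome 17, 43006725 to 43014456, plus strand) had 13.3, 13.0 and 12.4 CPM in the V columns, 8.26, 8.06 and 9.50 CPM in the DAT columns and 7.96, 9.17 and 9.30 CPM in the D columns. Its log2 fold change was 0.54 (SE 0.11, adjusted p = 1.45e-06) in the authors' deposited table.

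The deposited comparison of shDAT D with shCTRL D called no interferon-stimulated gene, and a single library decided that. Only 20 of the genes have an adjusted p in the authors' deposited table, and 0 of these were higher and 0 lower, against 1.0% of features higher and 5.62% lower. At an unadjusted p below 0.05 the authors' deposited table has 10 of 43 higher and 1 lower, where 11.4% of all features pass in either direction. With edgeR on the same columns 0 were called, and 9 of 39 were higher and 0 lower unadjusted, against 20.8% of features in either direction. The lowest adjusted p, for IRF7, was 0.0891 in the authors' deposited table. The library shCTRL VXN replicate 2 was singled out after its likeness to the DAT columns was seen, so leaving it out tends to set the trios further apart. When it was left out of the D columns, a DESeq2 rerun called 16 of 39 genes higher in the DAT columns and 3 lower, with 13.8% of features higher and 21.1% lower. Fold changes of these reruns are not shrunken, unlike the deposited ones. The median log2 fold change became 0.26 over the list and -0.018 over all features. Leaving out any other library of the DAT or D columns gave 0 calls in either direction.

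Without that library the genes called higher in the DAT columns came from every role group described above. ISG15 had the lowest adjusted p, with a log2 fold change of 0.82 (SE 0.07, DESeq2 adjusted p = 4.62e-29). ISG20 rose by 0.90 (SE 0.17, adjusted p = 9.81e-07), IFIT1 by 0.81 (SE 0.24, adjusted p = 0.00266) and OASL by 0.77 (SE 0.17, adjusted p = 4.46e-05). For OASL the DAT columns had 6.13 to 8.75 CPM against 4.25 and 4.02 CPM. Of the transcription factors 3 of 4 rose: IRF9 by 0.75 (SE 0.14), IRF7 by 0.38 (SE 0.12) and STAT2 by 0.32 (SE 0.06). PARP9, which acts with its partner DTX3L, rose by 0.62 (SE 0.13, adjusted p = 2.02e-05), from 16.4 and 15.6 CPM to 25.9, 24.9 and 24.2 CPM. The genes IFI6, IFI27, DDX60, ZC3HAV1, UBE2L6, IFITM1, IFITM2 and OAS1 rose too, of which OAS1, IFITM1 and IFI27 have a mean under 1 CPM. The 3 genes that fell were IFIT5 by 0.33 (SE 0.08), PARP12 by 0.26 (SE 0.09) and TRIM25 by 0.13 (SE 0.04). OAS3 was at 0.03 (SE 0.10, adjusted p = 0.879) and was not called. The group without shCTRL VXN replicate 2 holds 2 libraries.

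Among the 33 genes of at least 1 CPM, the DAT columns lay above all 3 D columns for 5 and below them for 1, and 27 overlapped, where 8.48% of the 15290 features of that level lay above and 11.6% below. Without shCTRL VXN replicate 2 they lay above for 20 and below for 6, and 7 overlapped, where 31.6% of the features lay above and 42.7% below; 3 against 2 libraries separate more easily. That library was nearer the DAT mean than the mean of the other D columns for 27 of the 33 and for 80.6% of the features, so this held across the transcriptome and not for these genes in particular. Other measures moved with it. The summed level of the leukocyte, endothelial and fibroblast markers was 39.14 to 45.26 CPM in the DAT columns, 43.35 CPM in shCTRL VXN replicate 2 and 23.32 and 24.66 CPM in the other D columns, and 3 of 4 with an adjusted p were higher in the rerun without it. Since 8 of these 10 markers have a mean under 1 CPM, few genes carry the sum, and no cell type is read from it. Of the 8 proliferation markers, 6 were lower in that rerun. The part of either in the result was not tested.

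**Figure D4:**
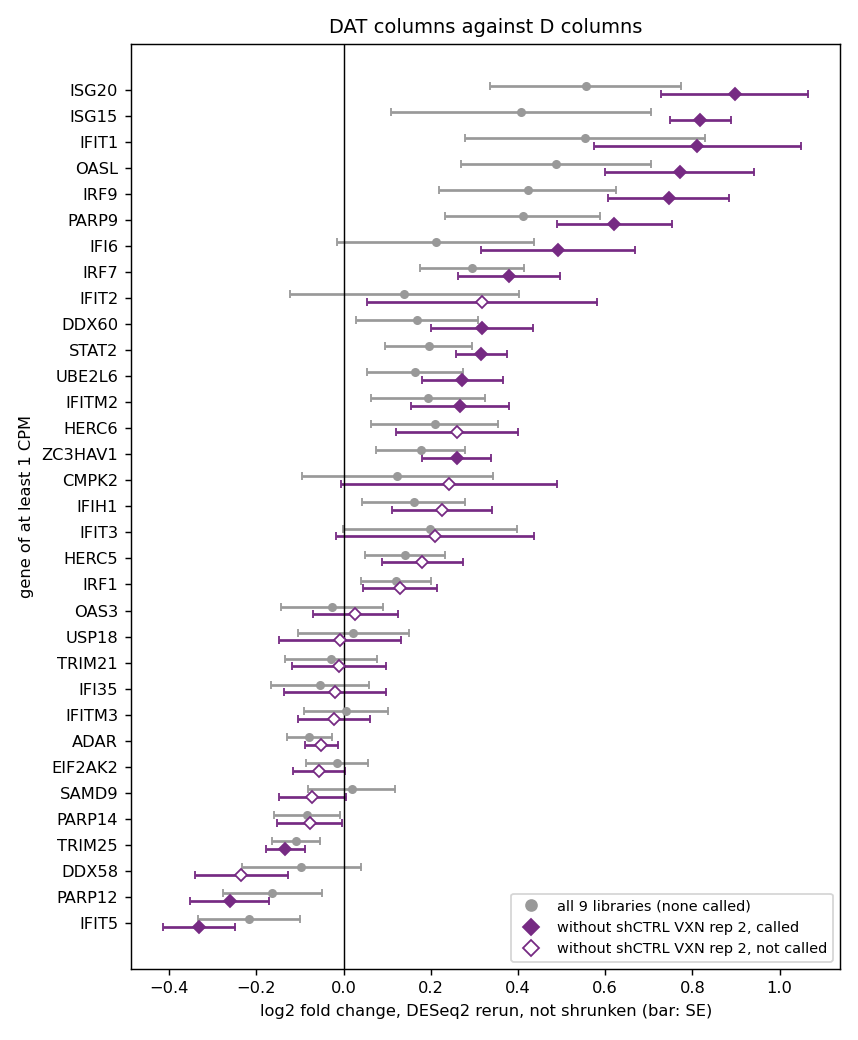
The log2 fold change of the DAT columns against the D columns with its SE is plotted for the 33 interferon-stimulated genes of at least 1 CPM, from a DESeq2 rerun on all 9 libraries (grey) and one without shCTRL VXN replicate 2 (purple, filled where called). None is called with all 9 libraries, and without that library ISG20 reaches 0.90 and ISG15 0.82.

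The V columns were compared with the DAT columns directly, which tests the difference between the 2 deposited comparisons because the D columns drop out of the fold change. The fit held all 9 libraries, so the D columns, shCTRL VXN replicate 2 among them, still entered the estimate of spread behind each SE. DESeq2 called 15 of 42 interferon-stimulated genes higher in the V columns and 18 lower, with 20.4% of features higher and 21.2% lower. The median was -0.413 over the list and -0.021 over all features. Among the 33 genes of at least 1 CPM the V columns lay above all DAT columns for 14 and below them for 17, and only IFIT2 and TRIM21 overlapped, where 37.9% of features of that level lay above and 39.1% below. This comparison shares the V libraries with the deposited shCTRL V table, so its values are given beside that table and are no separate support for them. Its fold changes and medians are not shrunken, unlike the deposited ones, so their sizes are not directly comparable. OAS3 was at -1.99 (SE 0.12, adjusted p = 4.63e-60), IFIT1 at -2.00 (SE 0.29, adjusted p = 3.18e-11), CMPK2 at -1.87 (SE 0.26, adjusted p = 4.72e-12) and OASL at -1.61 (SE 0.23, adjusted p = 1.23e-11). HERC5 was at -1.14 (SE 0.10, adjusted p = 1.42e-29) and UBE2L6 at -1.0 (SE 0.12, adjusted p = 3.98e-17). Higher in the V columns were ISG20 at 1.38 (SE 0.21, adjusted p = 5.39e-10), IRF7 at 1.17 (SE 0.12, adjusted p = 6.66e-23), TRIM25 at 1.04 (SE 0.05, adjusted p = 1.71e-79) and IFIT3 at 1.0 (SE 0.19, adjusted p = 6.55e-07). ISG15 was at -0.76 (SE 0.30, adjusted p = 0.0271). ADAR (0.12, SE 0.05, adjusted p = 0.0445) and IFIT5 (0.29, SE 0.12, adjusted p = 0.0378) were called by DESeq2 with all 9 libraries and lost the call under several other settings, ADAR also with edgeR (adjusted p = 0.0655). By role, all 4 transcription factors were higher, while 5 of 6 genes of ISG15 conjugation, 3 of 4 OAS genes and 3 of 4 membrane factors were lower.

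The genes upstream of these were also measured. Of 10 interferon ligand genes, 5 had 0 counts in all libraries, IFNB1 had at most 3 and IFNL1, IFNL2 and IFNL3 at most 1. IFNE, an epithelial type I interferon, had 7 to 74 counts. It had 0.935, 1.11 and 1.56 CPM in the V columns, 0.2496, 0.264 and 0.328 CPM in the DAT columns and 0.188, 0.155 and 0.127 CPM in the D columns, and was higher at 2.82 (SE 0.44, adjusted p = 1.32e-10) in the authors' deposited table. The authors' deposited table had 5 of 16 receptor and signalling genes higher and 3 lower, against 21.4% and 22.7% of all features. The kinase gene JAK1 was at 0.98 (SE 0.10, adjusted p = 1.94e-22), the receptor chain IFNGR1 at 0.51 (SE 0.08, adjusted p = 5.13e-09) and IFNAR2 at -0.65 (SE 0.10, adjusted p = 2.44e-10) in the authors' deposited table. For a further list of 25 interferon-induced genes, the authors' deposited table had 7 higher and 6 lower of 20 with an adjusted p. Its lowest adjusted p values belonged to IFI30, a lysosomal thiol reductase, at -1.40 (SE 0.10), TRIM14 at -1.18 (SE 0.09), the nuclear body protein gene SP100 at 0.66 (SE 0.06) and NMI, a partner of IFI35, at 1.31 (SE 0.19) in the authors' deposited table. In the rerun of the DAT and D columns without shCTRL VXN replicate 2, 3 of 16 receptor and signalling genes were higher and 7 lower, and 4 of 19 further interferon-induced genes with an adjusted p were higher and 5 lower, against 13.8% and 21.1% of all features.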

How the data were processed

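The 9 HCT116 libraries were prepared with TruSeq RNA v2 reagents for an Illumina NextSeq, per the labels' protocols. The submitters' processing notes name fastp 0.20.1, FastQC 0.11.9, STAR without a version, DESeq2 1.34.0 and the build GRCh38. No source used here gives the program that counted reads, its annotation or its use of strand. The authors deposited raw counts for 60651 gene rows and 1181 repeat subfamilies. Their deposited log2 fold changes are shrunken DESeq2 estimates. Their deposited p-values, raw and adjusted, are from the same tool, and a Wald test rerun matched the raw ones. The adjusted ones were read as deposited and were not compared with the rerun. The base mean in those tables, a mean signal of normalised counts, was computed by the authors over all 9 libraries.

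Groups were taken from the labels and compared with edgeR 4.0.16 (quasi-likelihood test, TMM scaling, filter on low counts, R 4.3.3) in a fit of all 9 libraries, with DESeq2 1.42.0 as the alternative. The trios behind the deposited tables were known from earlier work on these values and were checked here by rerunning DESeq2, which also compared the V with the DAT columns. Benjamini-Hochberg adjustment ran over all features tested, and an adjusted p below 0.05 was called. CPM values use TMM-scaled totals, and RPKM uses exon lengths of GENCODE release 29 (GRCh38), which also gave the gene coordinates. The fits were tested on simulated data first. Alternatives were other scaling, no filter, the other tool, a replicate block and leaving out each library, and the closing section gives their effect.

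The genes and lists were chosen with earlier results of these data known. Values in every library are given for interferon-stimulated genes called in a deposited table or between V and DAT columns with an absolute log2 fold change of at least 1 and a mean of at least 1 CPM, and for the gene of highest mean CPM in each role group. Other genes are given as group counts with examples by adjusted p, and ISG15, PARP9, BST2 and IFITM2 were described after their values were seen. As a check of pairing, deviations of same-numbered libraries from their group means correlated at 0.855, 0.888 and 0.953 between shCTRL VXN and shCTRL DMSO. Differently numbered replicates 1 and 2 correlated at 0.866 and 0.91. These values do not set replicates 1 and 2 apart as pairs, and no label states a shared culture. No protein sequences were used here, and 1 gene of the receptor and signalling list is counted but not reported by name.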

Additional observations from a re-analysis of the deposited data

How the results depend on the processing

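The counts of interferon-stimulated genes that were higher or lower in the V columns stayed within 1.5 times of those reported under every setting tried, against the D columns (12 to 13 higher, 11 to 14 lower) and against the DAT columns (11 to 15 higher, 15 to 20 lower). For shDAT D against shCTRL D, leaving out each library in turn gave 0 to 16 genes higher and 0 to 3 lower, and both upper values came from the rerun without shCTRL VXN replicate 2. The other settings of that comparison gave 0 in both directions. With the replicate block in a fit of only the 6 libraries compared, an alternative chosen after seeing the data, the VXN comparison had 1 gene lower in place of 0. With the replicate block in the fit of all 9 libraries it had 0 higher and 0 lower. Same-numbered libraries of shSLC6A3 DMSO and shCTRL DMSO correlated at -0.815, 0.809 and -0.801 in their deviations from the group means, so the numbers do not pair them, and the replicate block gave 0 higher and 0 lower in that comparison in either fit. Of single genes described in full, 150 values against the D columns kept their direction and call. Against the DAT columns 139 did and 14 lost the call, all of ADAR (adjusted p 0.0655 to 0.348) or IFIT5 (adjusted p 0.0378 as reported, 0.0815 to 0.198 where lost), and none reversed. For genes under 1 CPM, counts as low as 0 limit what could be detected.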
